A study of Saccharomyces cerevisiae with 4 samples.

Results

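Baker's yeast takes up inorganic phosphate through high-affinity and low-affinity carriers, and 8 genes of this system were followed: the transporter genes PHO84, PHO89, PHO87, PHO90, PHO91 and GIT1, the gene of the Pho84 trafficking factor PHO86, and SPL2, whose product acts on low-affinity uptake. They were chosen by gene symbol from the 5449 named genes on the array, and each was read by 1 probe set. Messenger RNA was measured on 4 arrays in strain BY4742 of Saccharomyces cerevisiae, a haploid laboratory strain of mating type alpha. The ada1 deletion and gcn5 deletion strains had 1 array each and wild type had 2, and the deletions replaced each gene with the drug resistance cassette KanMX. Every culture grew at 30C with shaking in YPD, a rich medium with glucose, and was harvested in exponential phase at an optical density of 0.7. ADA1, now named HFI1, encodes a structural subunit of the coactivator complex SAGA, and GCN5 encodes the histone acetyltransferase of that complex. Whether the wild-type arrays came from different cultures is not stated in the labels, so a p-value here reflects the spread between those arrays alone, which may be technical. A deletion strain with 1 array has no replicate check of its own, and the fit assumed that it varies as the wild-type arrays do.

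When phosphate is scarce, the cyclin-dependent kinase Pho80-Pho85 is inhibited by Pho81, and the transcription factor Pho4 enters the nucleus and, with Pho2, activates genes such as PHO84, PHO89, SPL2 and PHO5. Cells with ample phosphate rely on the low-affinity carriers Pho87 and Pho90. These carriers, and Pho91 of the vacuolar membrane, carry an SPX domain, a module that senses phosphate status through inositol pyrophosphates.

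Signals are deposited MAS5 intensities per probe set on a linear scale. The background level was set at a signal of 166, the 20th percentile of mean log2 signal over all probe sets. The deleted genes followed the labels, with HFI1 at 6.70 on the ada1 deletion array, against 246 and 279.8 in wild type, and GCN5 at 3.28 on the gcn5 deletion array, against 309 and 385 in wild type. Markers of mating type were read next. All 6 genes specific to cells of mating type a lay below the background level on every array, at 6.74 to 111, while 3 of 4 alpha-specific genes lay above it on every array and MF(ALPHA)2 lay below it on the ada1 deletion array, at 134. The alpha-specific genes nevertheless moved with the phosphate genes. Their summed signal was 3803 in ada1 deletion cells and 6025 in gcn5 deletion cells, against 32273 and 25491 in wild-type cells. STE3, SAG1 and MF(ALPHA)2 fell in both deletion strains and MF(ALPHA)1 fell in the ada1 deletion strain, and their part in the phosphate results was not tested. Of the 4 auxotrophic markers of BY4742, LEU2, LYS2 and URA3 lay below the background level on every array, while HIS3 gave 1517 to 1798 and lay above it. The ada1 deletion array and wild-type replicate 1 reached signals of 21989 and 23746, whereas the gcn5 deletion array and wild-type replicate 2 reached 12244 and 11804. These ranges pair each deletion array with 1 wild-type array, and for the tested members differences within the pairs are given beside the pooled ones. The median log2 difference over the 4541 tested genes was 0.08 for the ada1 deletion and 0.15 for the gcn5 deletion, relative to wild type.

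PHO84 and PHO89, which encode the high-affinity transporters, and SPL2 were lower in both deletion strains than in wild type. In the ada1 deletion strain the 3 genes were at least 56.8-fold, 9.25-fold and 20.3-fold lower, and in the gcn5 deletion strain 2.85-fold, 6.13-fold and at least 20.3-fold lower. The other tested members, for the low-affinity and vacuolar carriers and for PHO86, differed from wild type by less than 2-fold, with PHO87 above it and the rest below. GIT1 stayed below the background level on every array. Across the 7 genes that passed the filter on dim probe sets, both deletion arrays lay outside the range of both wild-type arrays in 7 of 7, below it in 6 and above it in 1. Over all tested genes this held for 40.2 percent, of which 12.7 percent of genes lay below and 27.5 percent above. SPL2 and PHO89 passed the filter only through their wild-type signals.

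**Figure D1:**
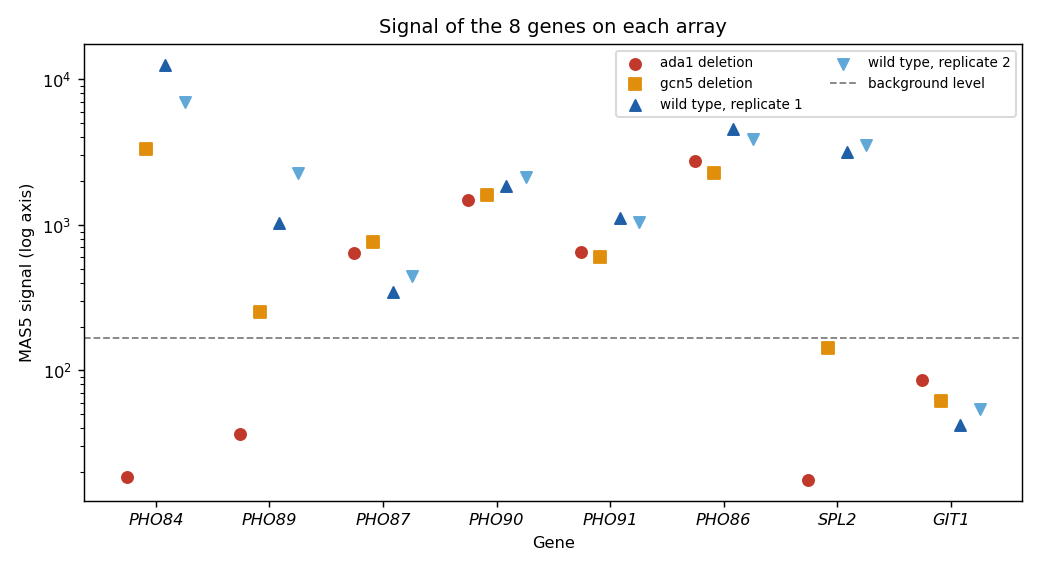
MAS5 signal on a log axis for the 8 phosphate transport genes, with 1 point per array (ada1 deletion, gcn5 deletion, wild-type replicates 1 and 2) and a dashed line at the background level of 166. PHO84, PHO89 and SPL2 drop below the line on the ada1 deletion array, SPL2 also on the gcn5 deletion array, and GIT1 lies below it on all 4 arrays.

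PHO84 encodes the main high-affinity transporter, a proton-phosphate symporter of the plasma membrane. Its signal was 18.4 in ada1 deletion cells and 3299 in gcn5 deletion cells, against 12610.3 and 7020.3 in wild-type cells. The groups did not overlap, and the ada1 deletion value was below the background level while the gcn5 deletion value was well above it. PHO84 was at least 56.8-fold lower in the ada1 deletion strain than in wild type (log2 difference -8.99 ± 0.22 SE as deposited, and -8.95 with an adjusted p of 5.84e-10 after quantile normalization, limma). In the gcn5 deletion strain it fell 2.85-fold, a log2 difference of -1.51 ± 0.22 SE (adjusted p = 6.42e-10, or 0.000847 after quantile normalization, limma). That value depended on the wild-type array, with -1.09 relative to replicate 2, whose signal range it shares, and -1.93 relative to replicate 1. The call in the gcn5 deletion strain held under all 6 tested alternatives, but only narrowly with signals raised to the background level.

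The sodium-phosphate cotransporter encoded by PHO89 works best at alkaline pH. Its signal was 36.8 in ada1 deletion cells and 250.0 in gcn5 deletion cells, against 1028 and 2285 in wild-type cells. Both deletion arrays were below both wild-type arrays, and the ada1 deletion value again lay under the background level. The gene was at least 9.25-fold lower in the ada1 deletion strain (log2 difference -5.38 ± 0.40 SE; adjusted p = 8.21e-38, or 1.95e-06 after quantile normalization, limma). In the gcn5 deletion strain it fell 6.13-fold, a log2 difference of -2.62 ± 0.40 SE (adjusted p = 1.12e-08, or 0.000525 after quantile normalization, limma). Relative to wild-type replicate 2, of like range, the gcn5 deletion value was -3.19, and relative to replicate 1 it was -2.04. This call too held under all 6 tested alternatives, but came near the threshold with signals raised to the background level.

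SPL2 encodes a small protein that lowers low-affinity phosphate uptake and acts on Pho87. Its signal was 17.6 in ada1 deletion cells and 142 in gcn5 deletion cells, against 3173 and 3550.0 in wild-type cells. Both deletion arrays lay below the background level and the wild-type arrays far above it. SPL2 was therefore at least 20.3-fold lower in each deletion strain, with adjusted p = 1.17e-75 for the ada1 deletion and 1.61e-27 for the gcn5 deletion (limma; 7.24e-09 and 4.04e-07 after quantile normalization). Those p-values as deposited test the log2 differences of -7.57 and -4.56, not the bound. Both calls held with signals raised to the background level, at a log2 difference of -4.34. The same bound in both strains is set by the background level and says nothing of how they compare.

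The low-affinity carrier gene PHO87 was the single tested member with higher signals in the deletion strains. It gave 636 in ada1 deletion cells and 759.6 in gcn5 deletion cells, against 343 and 445 in wild-type cells. Each deletion array lay above each wild-type array. The log2 difference was 0.70 (95 percent interval 0.00 to 1.41) for the ada1 deletion and 0.96 (0.26 to 1.66) for the gcn5 deletion, and neither passed the test on values as deposited (adjusted p = 0.299 and 0.109, limma). After quantile normalization both passed, at 0.69 and 0.78 (adjusted p = 0.0333 and 0.0319), and the adjusted p ranged from 0.0142 to 0.418 for the ada1 deletion and from 0.00923 to 0.258 for the gcn5 deletion over the 6 tested alternatives.

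PHO90, the paralog of PHO87, encodes the other low-affinity carrier of the plasma membrane and had the smallest differences of the tested members. Its signal was 1493 in ada1 deletion cells and 1608 in gcn5 deletion cells, against 1859 and 2123 in wild-type cells. The arrays did not overlap, but the log2 differences of -0.41 (95 percent interval -0.84 to 0.02) and -0.30 (-0.73 to 0.12) did not pass the test (adjusted p = 0.332 and 0.548, limma), nor under any of the 6 tested alternatives. The intervals include 0 and exclude a fall of 2-fold.

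PHO91 encodes the vacuolar carrier, which releases phosphate from the vacuole into the cytosol. Its signal was 647 in ada1 deletion cells and 603 in gcn5 deletion cells, against 1117 and 1049 in wild-type cells. Both deletion arrays were lower than either wild-type array. The gene fell in the gcn5 deletion strain with a log2 difference of -0.84 ± 0.27 SE (adjusted p = 0.0391, or 0.0109 after quantile normalization, limma), a call that was lost with a filter at the 40th percentile, with signals raised to the background level and with a single variance prior (adjusted p = 0.149, 0.147 and 0.264). In the ada1 deletion strain the log2 difference of -0.74 ± 0.27 SE missed the threshold (adjusted p = 0.0631, limma), while after quantile normalization it passed (0.0328).

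PHO86 encodes an endoplasmic reticulum protein needed for Pho84 to leave that compartment. Its signal was 2768 in ada1 deletion cells and 2272 in gcn5 deletion cells, against 4560.1 and 3873 in wild-type cells. Again the deletion arrays lay below both wild-type arrays. PHO86 fell in the gcn5 deletion strain 1.85-fold, a log2 difference of -0.89 ± 0.28 SE (adjusted p = 0.0364, or 0.0075 after quantile normalization, limma), with the call lost after scaling to a common median, without the filter, with signals raised and with a single variance prior (adjusted p = 0.0521, 0.129, 0.0959 and 0.221). The log2 difference in the ada1 deletion strain was -0.60 ± 0.28 SE (adjusted p = 0.222, or 0.04998 after quantile normalization, limma).

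GIT1 encodes the permease for glycerophosphoinositol and glycerophosphocholine, organic phosphate sources used under starvation. It gave 86.2 in ada1 deletion cells and 61.3 in gcn5 deletion cells, against 42.4 and 54.4 in wild-type cells. All 4 values lay under the background level, so the gene was not tested and no fold is given.

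**Figure D2:**
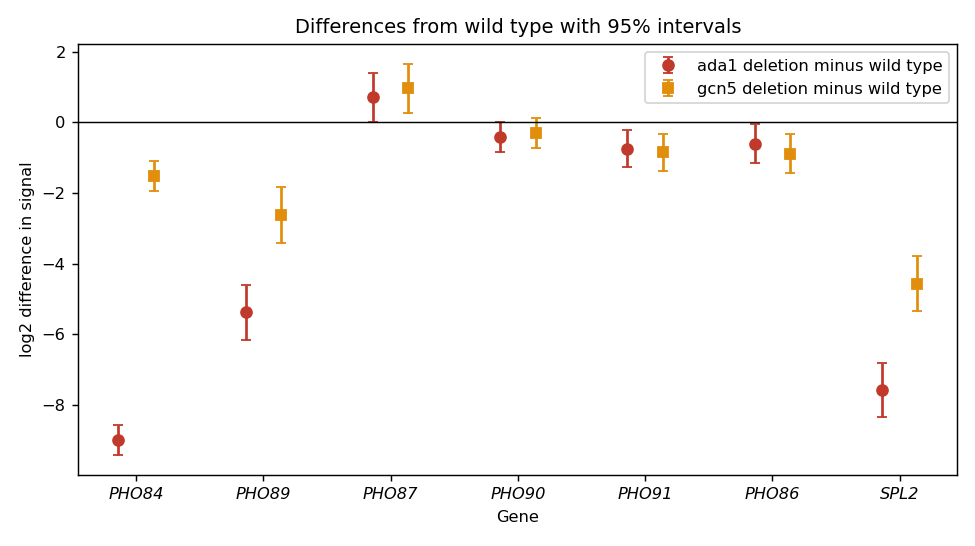
Fitted log2 difference in signal from wild type for the 7 tested genes (vertical axis), for the ada1 deletion (circles) and the gcn5 deletion (squares), with 95 percent intervals from limma on the values as deposited. PHO84, PHO89 and SPL2 lie between -1.51 and -8.99, PHO87 lies above 0 in both strains, and values whose deletion array is below the background level (PHO84, PHO89 and SPL2 in the ada1 deletion, SPL2 in the gcn5 deletion) stand for at least the folds given in the text.

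Within the array pairs of like signal range, the ada1 deletion against wild-type replicate 1 and the gcn5 deletion against replicate 2, every tested member kept its direction. The lack of overlap between deletion and wild-type arrays fixed this in advance, so it is no separate check and only the sizes are informative. PHO84 was at least 76.1-fold lower in the ada1 deletion pair and 2.13-fold lower in the gcn5 deletion pair. PHO89 was at least 6.20-fold lower in the ada1 deletion pair and 9.14-fold lower in the gcn5 deletion pair, and SPL2 at least 19.1-fold and at least 21.4-fold lower. The low-affinity genes PHO87 and PHO90 had log2 differences of 0.89 and -0.32 in the ada1 deletion pair and 0.77 and -0.40 in the gcn5 deletion pair. PHO91 had -0.79 in the ada1 deletion pair and -0.80 in the gcn5 deletion pair, and PHO86 had -0.72 and -0.77. Differences within a pair have no test.

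In counts, 3 of the 7 tested members fell in the ada1 deletion strain, where 8.43 percent of all tested genes were called, 5.70 percent lower and 2.73 percent higher. In the gcn5 deletion strain 5 of 7 fell, where 4.65 percent of genes were called, 2.53 percent lower and 2.11 percent higher. No member rose by this test (limma), and at an unadjusted p under 0.05 the count was 1 in each strain, PHO87. After quantile normalization 5 members were lower and 1, PHO87, was higher in each strain, against 8.68 percent of genes lower and 6.56 percent higher in the ada1 deletion and 5.44 and 3.15 percent in the gcn5 deletion. The median log2 difference of the 7 members was -0.74 in the ada1 deletion strain and -0.89 in the gcn5 deletion strain. The 2 strains share the wild-type arrays, so their counts are not independent. SPL2 and PHO89 passed the filter on dim probe sets only through their wild-type signals, so their place in these counts depends on their fall.

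Setting the deletion strains directly against each other asked whether loss of the structural subunit and loss of the acetyltransferase leave different phosphate transport transcripts. PHO84 was the clear difference, at least 19.9-fold lower in the ada1 deletion strain than in the gcn5 deletion strain (log2 difference -7.48 ± 0.25 SE as deposited, and -7.54 with an adjusted p of 1.42e-08 after quantile normalization, limma). With each strain taken relative to the wild-type array of like range and signals raised to the background level, PHO84 was at least 35.8-fold lower in the ada1 deletion strain. PHO89 was at least 1.51-fold lower in the ada1 deletion strain (log2 difference -2.77 ± 0.46 SE; adjusted p = 1.69e-07, or 0.0015 after quantile normalization, limma), but with signals raised to the background level its difference shrank to -0.59 and the call was lost (adjusted p = 0.701). With each strain also taken relative to the wild-type array of like range, the PHO89 difference turned to 0.56, so its direction between the strains is not settled. SPL2 was also called lower (-3.01 ± 0.46 SE; adjusted p = 4.24e-09, limma), yet both signals lay under the background level and no fold is given.

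The remaining members did not separate the strains. The log2 difference between the ada1 and gcn5 deletion strains was -0.26 (95 percent interval -1.07 to 0.56) for PHO87, -0.11 (-0.60 to 0.39) for PHO90, 0.10 (-0.50 to 0.71) for PHO91 and 0.28 (-0.34 to 0.91) for PHO86. Their adjusted p-values were 0.803 to 0.925 (limma), and each interval but that of PHO87 excludes a 2-fold difference in either direction. Of the 7 tested members, 3 were called lower and the others were not called, where 6.25 percent of all genes were called, 4.25 percent lower. The 3 include SPL2 and PHO89, which passed the filter only through their wild-type signals, and SPL2 lay under the background level in both deletion strains. With signals raised to that level, PHO84 alone remained called.

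**Figure D3:**
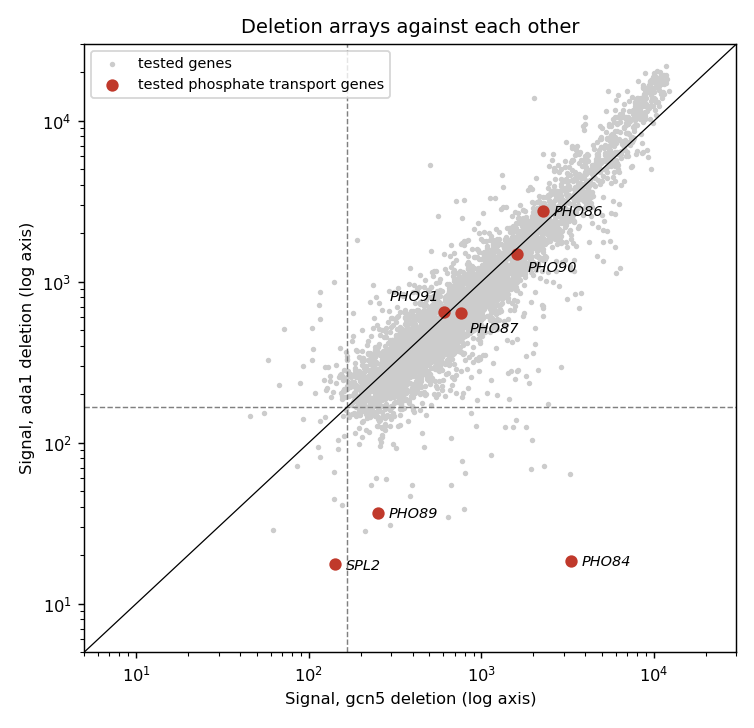
Signal on the ada1 deletion array (vertical) against signal on the gcn5 deletion array (horizontal), both on log axes, for all tested genes in grey and the 7 tested phosphate transport genes in red, with the line of equal signal and dashed lines at the background level of 166. PHO84 stands at 18.4 against 3299, while PHO87, PHO90, PHO91 and PHO86 lie near the line.

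The spread between the wild-type arrays was itself uneven across the members. PHO89 differed by 1.15 on the log2 scale between them, more than all but 0.396 percent of tested genes, and was higher in replicate 2. PHO84 differed by 0.85 and was higher in replicate 1, with 2.75 percent of genes differing more. The other 5 members differed by 0.09 to 0.38, around the median of 0.26 over all tested genes. After quantile normalization PHO84 differed by only 0.25, with 27.4 percent of genes differing more, whereas PHO89 still differed by 0.98 and only 0.418 percent of genes exceeded it. The fit on values as deposited gave each gene the spread typical of its signal, an SD of 0.18 for PHO84 and 0.33 for PHO89, where the wild-type arrays gave SDs of 0.60 and 0.81. The standard errors of PHO84 and PHO89 on values as deposited therefore do not reflect their own wild-type spread, and their p-values are too small. After quantile normalization the fit still used an SD of only 0.27 for PHO89, whose wild-type arrays differed by 0.98. The PHO89 p-values after quantile normalization are therefore too small as well.

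**Figure D4:**
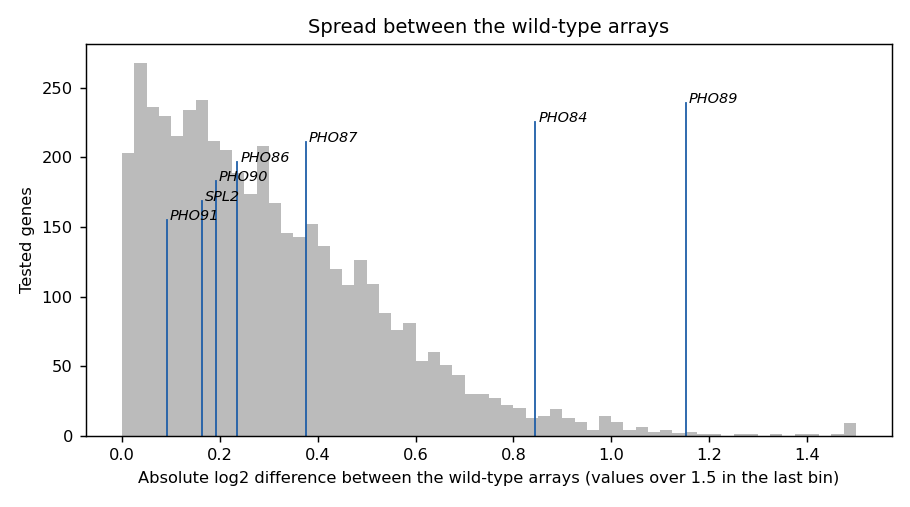
Number of tested genes (vertical) by the absolute log2 difference between the wild-type arrays (horizontal), in grey, with vertical lines at the 7 tested phosphate transport genes. PHO84 at 0.85 and PHO89 at 1.15 lie in the right tail, and the other 5 lie between 0.09 and 0.38.

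Likeness of pattern was measured as the Euclidean distance over the 4 arrays between log2 signals, each taken relative to its wild-type mean. The nearest tested genes to PHO84 were CWP1, a cell wall mannoprotein gene (distance 3.31), the acid phosphatase gene PHO3 (4.204) and the stress gene DDR48 (4.75). CWP1 gave 68.9 in ada1 deletion cells and 1948 in gcn5 deletion cells, against 3738 and 3920.3 in wild-type cells, so it too was below the background level in the first strain and far above it in the second. The nearest to SPL2 were the alpha-factor gene MF(ALPHA)2 (1.78), PHO3 (2.03) and PHO11, whose probe set may cross-detect the near-copy PHO12 (2.51). The nearest to PHO89 were PHM6 (1.34), YGP1 (1.51) and PHO3 (1.64). Values under the background level enter these distances. With signals raised to that level, CWP1 and DDR48 remained among the nearest 3 to PHO84, PHO3 and PHO11 among those to SPL2, and PHM6 among those to PHO89.

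Other genes of phosphate metabolism were read from 4 lists, beside shares of all tested genes called lower of 5.70 percent in the ada1 deletion and 2.53 percent in the gcn5 deletion. Of 5 tested phosphatase genes, 4 fell in each deletion strain and 0 rose (limma, 0 also at an unadjusted p under 0.05 and after quantile normalization), with medians of -3.60 in the ada1 deletion and -3.52 in the gcn5 deletion. The secreted acid phosphatase gene PHO5 gave 233 in ada1 deletion cells and 246 in gcn5 deletion cells, against 2595 and 3075 in wild-type cells. The log2 difference of PHO5 between the deletion strains was -0.08 (95 percent interval -0.68 to 0.53, adjusted p = 0.949, limma). For PHO84 it was -7.48, or -4.31 with signals raised to the background level, which its ada1 deletion signal did not reach. Both PHO5 signals lay near that level of 166, which limits how far they could differ. PHO11 likewise gave 191 in ada1 deletion cells and 203 in gcn5 deletion cells, against 7387 and 6088 in wild-type cells. PHO3, which is repressed by thiamine rather than phosphate, was at least 13.3-fold lower in each. It passed the filter on dim probe sets only through its wild-type signals, so its place in the count depends on that fall.

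Of 7 tested polyphosphate genes, 4 fell in each strain and 0 rose (limma), although PPN1, a polyphosphatase gene, was higher at an unadjusted p under 0.05 in each and was called higher in the ada1 deletion strain after quantile normalization (log2 difference 0.61, adjusted p = 0.0353). Over all tested genes 5.70 percent were called lower in the ada1 deletion and 2.53 percent in the gcn5 deletion. The polyphosphate list had medians of -0.99 in the ada1 deletion and -1.23 in the gcn5 deletion. PHM6, a phosphate-regulated gene, was at least 5.18-fold lower in each strain. It passed the filter on dim probe sets only through its wild-type signals, so its place in the count depends on that fall. VTC3 and VTC4, subunits of the vacuolar polyphosphate polymerase complex, fell as well, with log2 differences of -2.94 and -1.74 in ada1 deletion cells and of -2.35 and -1.30 in gcn5 deletion cells.

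Of 10 tested regulators, 2 fell in the ada1 deletion strain and 1 in the gcn5 deletion strain, with medians of -0.26 and 0.00. Over all tested genes 5.70 and 2.53 percent were called lower, and from counts this small over 10 genes nothing particular to the list is read. None rose (limma, 0 after quantile normalization, and 0 and 1 at an unadjusted p under 0.05). PHO81, the inhibitor of the Pho80-Pho85 kinase and itself a target of Pho4, gave 424 in ada1 deletion cells and 636 in gcn5 deletion cells, against 1313 and 1598 in wild-type cells. It fell in both, with log2 differences of -1.77 ± 0.26 SE for the ada1 deletion and -1.19 ± 0.26 SE for the gcn5 deletion (adjusted p = 5.68e-10 and 0.000303, limma). PHO4 gave 98.0 in ada1 deletion cells and 196 in gcn5 deletion cells, against 183 and 280.0 in wild-type cells. It was at least 1.36-fold lower in the ada1 deletion strain (adjusted p = 0.00711, limma), a bound set from the pooled wild-type mean. Wild-type replicate 1, of like range, lay at 183, near the background level of 166. The gcn5 deletion value of -0.21 ± 0.34 SE for PHO4 lay between the wild-type arrays (adjusted p = 0.842, limma). The log2 difference in PHO4 between the deletion strains had a 95 percent interval of -1.77 to -0.23 before adjustment and did not pass the test (adjusted p = 0.128). PHO23, a subunit of the Rpd3 histone deacetylase complex, had a log2 difference of -0.58 in the ada1 deletion strain (adjusted p = 0.542). PHO2 and PHO85 had 0.72 and 0.38 in the gcn5 deletion strain (adjusted p = 0.279 and 0.630).

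Of 10 tested genes for other transporters and phosphate-related membrane or metabolic proteins, 1 rose and 1 fell in the ada1 deletion strain and 1 fell in the gcn5 deletion strain, with medians of 0.08 and -0.19. Over all tested genes 8.43 percent were called in the ada1 deletion and 4.65 percent in the gcn5 deletion, and nothing particular to this list is read from its counts either. The rise was of SUL2, a sulfate permease gene, at least 3.13-fold higher in the ada1 deletion strain. SUL2 gave 519 in ada1 deletion cells and 104 in gcn5 deletion cells, against 99.1 and 160 in wild-type cells. It passed the filter on dim probe sets only through the ada1 deletion array, so its place in the count depends on that rise. The fall in both strains was of HXT1, a low-affinity glucose transporter gene, with log2 differences of -3.22 for the ada1 deletion and -0.68 for the gcn5 deletion. GTR1, a GTPase gene, had a log2 difference of -0.77 in the ada1 deletion strain (adjusted p = 0.258). PIC2, a mitochondrial carrier gene, and SYG1, which encodes an SPX domain protein, had -0.55 and -0.54 in the gcn5 deletion strain (adjusted p = 0.553 and 0.189, limma).

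**Figure D5:**
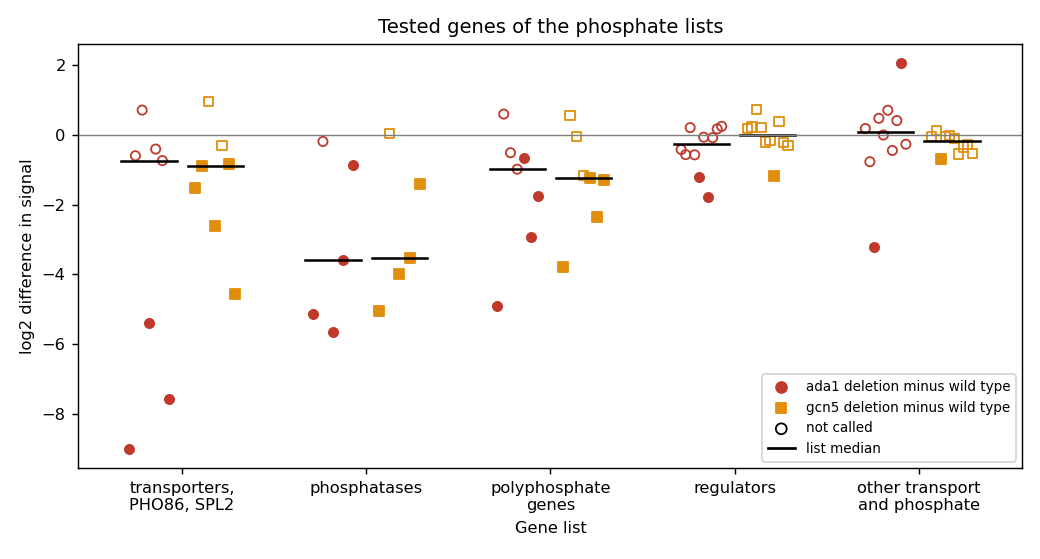
Log2 difference in signal from wild type (vertical) for the tested genes of 5 lists (horizontal), with circles for the ada1 deletion, squares for the gcn5 deletion, open symbols for genes not called and a bar at each list median. The phosphatase medians of -3.60 and -3.52 lie lowest, and PHO84, SPL2 and PHO89 in the ada1 deletion strain lie at -8.99, -7.57 and -5.38.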

How the data were processed

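The deposited values are MAS5 intensities per probe set, per the submitters' processing notes, from biotin-labelled RNA on one-colour Affymetrix arrays, per the labels' protocols. Its version, scaling target and any detection calls were not stated. Of 5716 probe sets, 5498 had 1 gene symbol, 0 several and 218 none, and 12 symbols were updated through the RefSeq gene table of assembly R64, which was used for names and gene order only. For 47 genes with several probe sets, the brightest stood for the gene. Features whose mean log2 signal reached the 20th percentile were tested, 4541 of 5667. All 4 arrays entered 1 limma 3.58.1 fit (R 4.3.3) of log2 signal on 3 groups, with a trended variance prior and Benjamini-Hochberg adjustment over all tested genes, and a call is an adjusted p under 0.05. The wild-type pair gave the only residual degree of freedom (1). The prior degrees of freedom were infinite as deposited and 9.17 after quantile normalization. Where every array of a group was under the background level, a fold sets the brighter group's mean against that level and is written as at least N-fold. A p-value beside such a fold tests the log2 difference as deposited, or after quantile normalization where stated, not the bound. The members are all named. Of each pathway list, up to 3 genes with the largest absolute difference in each comparison with wild type are named, and of genes most like a member the 3 nearest. Members and lists were chosen with earlier results of these data known. The alternatives were quantile normalization, scaling to a common median, no filter, a filter at the 40th percentile, signals raised to the background level, a single variance prior and leaving out each wild-type array. The number of arrays limits the precision. The fit was tested on simulated data.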

Additional observations from a re-analysis of the deposited data

Results flagged for a closer look

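PHO84, PHO89 and SPL2 are listed because the test of the difference between the deletion strains called them on values as deposited. The log2 difference between the ada1 and the gcn5 deletion strain was -7.48 for PHO84, -2.77 for PHO89 and -3.01 for SPL2 (limma, with 1 array in each strain and the spread taken from the wild-type pair). The signals were 18.4 in the ada1 deletion strain and 3299 in the gcn5 deletion strain for PHO84, 36.8 and 250.0 for PHO89, and 17.6 and 142 for SPL2. Of these 3, the PHO84 difference alone remained called with signals raised to the background level. Both SPL2 signals lay under that level, so its changes from wild type are not shown to differ between the strains, and the PHO89 call rests on an ada1 deletion signal under it.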

How the results depend on the processing

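No paired analysis was possible because each deletion strain has 1 array and the labels number only the wild-type samples. Pairs by signal range come from the data, and a fit with them as a block and each deletion strain as its own group leaves no residual degree of freedom. Of the values of single members under the alternatives, 150 kept their direction and their side of the threshold (or moved by less than the wild-type SD), 8 gained a call, 9 lost it, 8 moved by more and 3 reversed. Part of this tally was fixed in advance. Leaving out a wild-type array cannot move a value by more than the wild-type SD, and it leaves differences between the deletion strains unchanged. The filters and the single variance prior can alter a p-value but not a log2 difference. PHO90 between the deletion strains, uncalled throughout, reversed at 0.093 after scaling to a common median. With range-matched wild-type arrays and signals raised to the background level together, PHO89 and SPL2 between the strains reversed, at 0.56 and 0.16. The SPL2 value is the difference between the wild-type arrays alone, since both its deletion signals were raised to the same level. The 8 that moved were differences between the deletion strains taken relative to the wild-type array of each strain's own signal range, with or without signals raised. Among them PHO87 and PHO90 also changed sign, to 0.12 and 0.085 without signals raised. They are counted as moved because neither was called. Without raised signals, range matching shifts such a difference by the whole wild-type difference, which always exceeds the wild-type SD. Both range-matched alternatives were chosen after seeing the data. Members called numbered 6 after quantile normalization and 5 after median scaling in the ada1 deletion, 3 in the gcn5 deletion with signals raised to the background level and 3 with a single variance prior, and 1 between the strains with signals raised. Leaving out a wild-type array left no residual degree of freedom, so those fits gave values and no counts. Over all genes, quantile normalization called 298 higher and 394 lower in the ada1 deletion, 247 lower in the gcn5 deletion and 289 higher between the strains. Median scaling called 296 and 396, then 162 and 315, then 303 higher between the strains. With signals raised, 82 were higher in the ada1 deletion, 51 higher and 55 lower in the gcn5 deletion, and 40 higher and 95 lower between the strains. A single variance prior called 56 higher in the ada1 deletion, 56 and 67 in the gcn5 deletion and 52 higher between the strains, and without the filter 149 were higher in the gcn5 deletion. The cause was not tested. Signal near or under the background level limits PHO84, PHO89, SPL2, GIT1, PHO4, PHO3, PHO5, PHO11, PHM6, SUL2 and ARO9, among others.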

Other observations

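The genes on either side of the 8 members were read after the members' values were seen. Of 16 neighbours, 13 had a probe set and 8 were tested. In the ada1 deletion strain 1 of the 8 was called, where 8.43 percent of all tested genes were, and in the gcn5 deletion strain 0 were (limma, 0 at an unadjusted p under 0.05 and 0 after quantile normalization), where 4.65 percent of all genes were. The called neighbour was ARO9, an aromatic aminotransferase gene next to SPL2. By their systematic names, YHR136C for SPL2 and YHR137W for ARO9, the genes lie on opposite strands. ARO9 gave 54.8 in ada1 deletion cells and 662 in gcn5 deletion cells, against 568 and 575 in wild-type cells. It fell in the ada1 deletion strain (log2 difference -3.38 ± 0.40 SE; adjusted p = 9.21e-15, or 1.89e-06 after quantile normalization, limma), while the gcn5 deletion value was 0.21 ± 0.40 SE (adjusted p = 0.870). The difference between the deletion strains was -3.60 ± 0.47 SE (adjusted p = 2.19e-12, limma). SPL2, in contrast, lay below the background level in both deletion strains, and ARO9 only in the ada1 deletion strain. TUB3, an alpha-tubulin gene beside PHO84, gave 2329 in ada1 deletion cells and 2354 in gcn5 deletion cells, against 1656 and 1956 in wild-type cells, and was not called in either (adjusted p = 0.455 and 0.431, limma).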
